A study of Mus musculus with 7 samples.

Results

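Of the 287 gene regulatory elements (GREs) screened by PESCA (paralleled enhancer single-cell assay), 40 lay in intergenic DNA more than 500 kb from the nearest transcription start site. They were taken by the annotation and the distance that the deposited GRE table gives, a rule that uses no measured activity. Each GRE had been cloned with 3 barcodes upstream of a minimal human HBB promoter, an intron and a GFP reporter, packaged in AAV9 and injected into primary visual cortex (V1), so that the barcode in a viral transcript names the GRE that drove it. Activity was read as unique molecular identifiers (UMIs, counted transcript molecules) of the 3 barcodes per nucleus, in 1 single-nucleus RNA-Seq sample of adult C57BL/6J mice, 6 to 10 weeks old and labelled male, collected as 10 inDrops libraries in sets 1 and 2. The regions themselves had been ranked on ATAC-Seq of 2 samples each of nuclei pulled down from whole cortex of uninjected Sst-IRES-Cre, Vip-IRES-Cre and Pv-Cre mice, 6 to 12 weeks old, all of which also carried the SUN1-2xsfGFP-6xMYC nuclear tag. These samples are labelled male, while their protocol names both sexes. A Cre driver tags every cell that has ever expressed its gene, so SST, PV and VIP name drivers there, while in V1 the same names stand for nuclei gated on a transcript.

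An enhancer is a stretch of DNA that raises transcription from a promoter, often over a long distance and in some cell types only, and candidates are commonly found as open chromatin whose sequence is conserved between mammals. Gene deserts, long intervals without coding genes, hold many such conserved elements, often around genes of neural development and cell adhesion. The cells sought here were somatostatin (SST) interneurons, inhibitory neurons of the cortex that mostly contact the dendrites of other neurons. PV (parvalbumin) and VIP interneurons are other inhibitory classes.

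The 40 members lay 529 to 1761 kb from the start site listed for them, with a median of 768 kb, on 16 chromosomes. In the GENCODE M21 annotation of the same build (mm10, GRCm38), 36 overlapped no gene and 4 fell within introns, those of Naaladl2 for GRE240 and GRE257 and of long noncoding transcripts for GRE63 and GRE75. A start site of a coding gene lay more than 500 kb away for 34, but a start site of some annotated gene, for 24 of them a processed pseudogene, was nearer than that for all 40. The windows were 301 to 643 bases long. Their median GC content was 38.9%, against 41.9% for the other 247 GREs, and their median phyloP conservation score was 0.754 against 0.715. The cloned fragments were longer, since the authors added flanks on both sides.

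The sequences below are those of the 6 members with the highest SST fold, a ratio to other nuclei that is defined further on. They also include 2 members with lower folds (GRE136 and GRE42) that share a gap between coding genes. Each is given as 300 bases of its window on the plus strand of GRCm38. Positions are chr6:9842484-9842783 for GRE83, chr3:150792255-150792554 for GRE44, chr1:48524047-48524346 for GRE57, chr1:48109356-48109655 for GRE112, chr14:92829120-92829419 for GRE159, chr14:82682165-82682464 for GRE13, chr4:71303535-71303834 for GRE136 and chr4:71672154-71672453 for GRE42. Capitals mark matches on either strand to 9 transcription factor motifs searched: TAATTA (homeodomain), AACAAT (SOX), MEF2, CAGCTG (an E-box, bound by basic helix-loop-helix factors), CAGATG (a related E-box), TGACTCA (AP-1), TGACGTCA (the cyclic AMP response element, CRE), AGGTCA (nuclear receptors) and TGCTGAC (MAF). The sequence of GRE13 holds 3 CAGATG matches and an internal repeat, in which 41 of 50 bases starting at window position 22 recur 80 bases further on. The 2 lower members shown hold no match, and neither does GRE63. Matches do occur in other members with lower folds, namely GRE262, GRE110, GRE240, GRE257, GRE25 and GRE66. The sequences shown are thus no comparison of motifs between high and low members.
GRE83: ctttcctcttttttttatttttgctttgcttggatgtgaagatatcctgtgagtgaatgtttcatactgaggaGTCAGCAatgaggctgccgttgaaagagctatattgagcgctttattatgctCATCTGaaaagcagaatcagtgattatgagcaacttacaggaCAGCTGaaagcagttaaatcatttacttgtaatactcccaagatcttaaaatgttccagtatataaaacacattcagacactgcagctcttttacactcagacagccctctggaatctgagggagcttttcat
GRE44: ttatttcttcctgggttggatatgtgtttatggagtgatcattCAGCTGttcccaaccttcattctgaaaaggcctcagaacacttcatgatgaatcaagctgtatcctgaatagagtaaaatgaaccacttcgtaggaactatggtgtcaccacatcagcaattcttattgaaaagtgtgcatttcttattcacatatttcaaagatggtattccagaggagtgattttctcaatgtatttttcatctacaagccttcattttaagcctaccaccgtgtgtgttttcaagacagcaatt
GRE57: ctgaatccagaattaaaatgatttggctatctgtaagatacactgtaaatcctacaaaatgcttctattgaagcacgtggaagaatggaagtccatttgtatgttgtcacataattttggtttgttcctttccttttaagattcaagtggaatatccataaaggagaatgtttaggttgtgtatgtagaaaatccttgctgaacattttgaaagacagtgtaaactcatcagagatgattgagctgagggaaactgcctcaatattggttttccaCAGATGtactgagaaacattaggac
GRE112: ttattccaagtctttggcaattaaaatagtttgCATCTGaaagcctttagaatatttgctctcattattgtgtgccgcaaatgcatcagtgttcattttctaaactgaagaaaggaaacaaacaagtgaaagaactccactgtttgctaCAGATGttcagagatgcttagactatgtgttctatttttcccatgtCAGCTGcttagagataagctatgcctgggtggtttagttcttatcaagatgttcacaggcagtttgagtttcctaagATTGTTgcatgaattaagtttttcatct
GRE159: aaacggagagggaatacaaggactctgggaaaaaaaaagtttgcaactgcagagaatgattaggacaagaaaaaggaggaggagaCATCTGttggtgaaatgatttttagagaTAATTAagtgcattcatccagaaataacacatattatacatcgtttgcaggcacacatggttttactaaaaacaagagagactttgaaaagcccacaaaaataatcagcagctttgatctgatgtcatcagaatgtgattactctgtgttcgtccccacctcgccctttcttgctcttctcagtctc
GRE13: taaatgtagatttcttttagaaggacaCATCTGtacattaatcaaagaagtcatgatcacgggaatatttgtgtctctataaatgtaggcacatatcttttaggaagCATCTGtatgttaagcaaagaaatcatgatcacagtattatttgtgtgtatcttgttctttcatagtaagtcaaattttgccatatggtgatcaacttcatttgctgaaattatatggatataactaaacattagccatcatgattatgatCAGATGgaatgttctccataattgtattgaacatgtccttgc
GRE136: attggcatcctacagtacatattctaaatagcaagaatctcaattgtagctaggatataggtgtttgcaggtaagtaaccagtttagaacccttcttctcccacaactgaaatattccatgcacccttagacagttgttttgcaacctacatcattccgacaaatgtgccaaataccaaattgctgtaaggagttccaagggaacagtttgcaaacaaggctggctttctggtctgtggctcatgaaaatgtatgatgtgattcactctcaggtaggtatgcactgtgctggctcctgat
GRE42: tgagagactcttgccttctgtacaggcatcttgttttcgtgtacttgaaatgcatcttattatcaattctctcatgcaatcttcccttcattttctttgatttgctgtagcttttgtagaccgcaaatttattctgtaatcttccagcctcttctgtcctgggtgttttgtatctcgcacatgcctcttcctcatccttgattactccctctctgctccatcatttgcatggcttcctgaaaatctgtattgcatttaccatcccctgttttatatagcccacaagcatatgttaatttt

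Nuclei with more than 200 UMIs outside the viral barcode columns were kept, 32335 of 47348 barcodes, and were gated on marker transcripts. The gate gave 901 SST, 295 PV, 426 VIP and 381 NPY nuclei, 298 nuclei with general inhibitory markers only, 13394 excitatory nuclei, 1570 astrocytes, 1262 oligodendrocytes, 109 oligodendrocyte precursors (OPC), 238 microglia and 470 vascular nuclei, and left 12991 without a class. Of markers that the SST gate did not use, Grin3a (a glutamate receptor subunit) reached 9.74 UMIs per 10000 cellular UMIs in SST nuclei, 3.69 in OPC and at most 0.837 in every other class, and Elfn1 (a synaptic adhesion protein) 3.35 in SST and 2.41 in VIP nuclei. The PV gate was less sharp, since its marker Tac1, at 2.11, stood at 4.11 in the general inhibitory nuclei. Its other marker, Kcnc2, was highest in PV nuclei at 14.6, with 13.1 in general inhibitory and 8.24 in SST nuclei. Gad1, a marker of inhibitory neurons, was at 9.69 in SST nuclei. That was below PV (26.0), VIP (17.6), NPY (24.5) and general inhibitory nuclei (31.7) and above excitatory nuclei (0.339). Gad2 was at 10.3 in SST, 6.96 in PV, 8.73 in VIP and 19.8 in NPY nuclei. The members gave 45733 UMIs in kept nuclei, 9.09% of all GRE UMIs, from 13.9% of the GREs.

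The activity of a GRE in SST nuclei relative to other nuclei is given as an SST fold. It is the mean UMIs per SST nucleus, with 0.01 added, divided by the mean over all other kept nuclei, also with 0.01 added. Because the 10 libraries come from 1 sample and the labels tie none of them to an animal, there was no test between classes of nuclei. The 95% intervals of SST folds are exact Poisson intervals of the SST count alone. Those of ratios between SST and PV or VIP nuclei are exact binomial intervals on the counts of both classes. Both kinds cover counting error only and are too narrow wherever 1 nucleus holds many UMIs of a GRE. SST nuclei held more viral UMIs over the library as a whole, with a mean of 42.2 GRE UMIs per nucleus against 18.9 in excitatory, 38.2 in PV, 16.4 in VIP and 3.72 in vascular nuclei. The medians were 14 in SST, 6 in excitatory, 17 in PV, 6 in VIP and 2 in vascular nuclei, so that by median PV nuclei stood above SST nuclei. A fold taken on shares of all GRE UMIs, which removes the difference in means, is therefore given for some members as the relative fold. Nuclei of the classes also differed in depth, with a mean of 978 cellular UMIs in SST, 1447 in PV and 809 in VIP nuclei, and per 1000 cellular UMIs the GRE UMIs were 43.2 in SST, 26.4 in PV and 20.2 in VIP nuclei. Ratios between SST and PV nuclei are therefore given per nucleus and per cellular UMI, the latter added after seeing the data.

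Taken as a group, the members gave fewer UMIs than the other GREs, while among GREs with enough counts their median SST fold lay between those of the other groups. Their median was 321 UMIs per GRE, from 15 for GRE260 to 6143 for GRE44, against 995 for the other 247 GREs, and 21 of 40 (52.5%) had at least 300 UMIs, against 66.8% of the others. How much of each GRE the injected virus held was not analysed here. Over all 40 the median SST fold was 1.36, against 1.95 for the other GREs, but a GRE with few UMIs is drawn to 1 by the added 0.01. Among GREs with at least 300 UMIs the medians were 2.28 for the members, 2.35 for intergenic GREs at 100 to 500 kb, 2.41 for those within 100 kb and 2.27 for GREs within genes. Against other interneurons only, the median of these members was 1.45. An SST fold above 3 was reached by 6 of the 40 members (15.0%), against 15.7% of all 287 GREs. Of the 21 with at least 300 UMIs, 6 reached it (28.6%), against 23.7% of all 186 such GREs. The minimum of 300 counts UMIs of SST nuclei too, and among members GRE112 and GRE262 pass it only with these. The share among the 21 is thus partly set by the filter. The 6 were GRE83, GRE44, GRE57, GRE112, GRE159 and GRE13, of which GRE13 at 3.16 lay just inside the limit and GRE262 at 2.97 just outside. The share above 3 thus lay near that of the whole library. The count of 6 depended on the measure, since it was 0 on shares of all GRE UMIs, 1 on shares of nuclei with a UMI and 3 without the SST nucleus richest in each GRE. GRE83, GRE44 and GRE57 ranked 4, 6 and 8 in SST fold among the 287 GREs.

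GRE83 had the highest SST fold of the members, in a gap of 2651 kb between coding genes whose nearest listed gene is Nxph1, 893 kb away. Nxph1 encodes a secreted ligand of neurexins, the presynaptic adhesion proteins. SST nuclei held 328 of its 1748 UMIs, in 88 nuclei, which is 0.364 per SST nucleus against 0.0452 in the others and 0.0299 per barcode with 200 UMIs or fewer. The SST fold was 6.78 (interval 6.08 to 7.53), and the relative fold 2.82. Over the 10 libraries the SST fold ran from 1.87 over a median of 5.78 to 13.6, above 1 in each, and library sets 1 and 2 gave 6.64 and 6.96. Its 3 barcodes gave 5.42, 4.40 and 5.60. PV nuclei held 0.471 UMIs each, so that SST nuclei stood at 0.773 of the PV level per nucleus (interval 0.632 to 0.949) and at 1.14 times that level per cellular UMI, where the interval spanned 1. The level in SST nuclei was 5.35 times that in VIP nuclei (3.65 to 8.11). GRE83 was thus high in both SST and PV nuclei, and which of them stood higher depended on the scaling. Without the 1% of nuclei with the most viral UMIs, its SST fold was 4.29.

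GRE44, which the study followed up as a hit, had the most UMIs of the members and lies 645 kb from Adgrl4 (listed under its older name Eltd1), which encodes an adhesion G protein-coupled receptor of blood vessels. SST nuclei held 982 of its 6143 UMIs, or 16.0% in 2.79% of the nuclei, at 1.09 per nucleus against 0.164 elsewhere. Its SST fold was 6.31 (5.93 to 6.72) and its relative fold 2.33. The lowest library gave 3.39, the median 5.90 and the highest 11.5, and sets 1 and 2 gave 5.70 and 7.17. In contrast to GRE83, its level in SST nuclei was 2.00 times that in PV nuclei (1.69 to 2.37), or 2.96 times per cellular UMI, and 7.49 times that in VIP nuclei (5.79 to 9.84). A single SST nucleus held 127 of the 982 UMIs, and without it the fold was 5.51.

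GRE57 and GRE112 are neighbours, 414 kb apart in a gap of 4008 kb between coding genes on chromosome 1. GRE57 had 3410 UMIs, of which 481 in SST nuclei, and an SST fold of 5.27 (4.82 to 5.75). Its libraries ran from 2.28 over a median of 5.14 to 11.2, all above 1, and sets 1 and 2 gave 3.94 and 7.10. Its relative fold was 2.01, and its level in SST nuclei was 1.83 times that in PV nuclei (1.45 to 2.33), or 2.71 times per cellular UMI. Barcode 3 gave 7.30 and barcodes 1 and 2 gave 2.50 and 3.17. GRE112 had 303 UMIs, just past the minimum, of which 55 in SST nuclei and 3 in PV nuclei. Without its SST UMIs it would not reach the minimum. Its SST fold of 3.97 (3.13 to 5.00) came from few nuclei, since 13 SST nuclei held the 55 UMIs and 1 of them 24. Barcode 2 held 48 of the 55 and gave 4.27, while barcodes 1 and 3 gave 1.23 and 1.18. The libraries ran from 0.613 over a median of 1.92 to 18.9, and the fold fell to 2.52 without library 1-3 and to 2.48 without that nucleus, below the limit of 3. Both neighbours thus had a higher mean per SST nucleus than per other nucleus, GRE57 in all 10 libraries, while the fold of GRE112 was below 1 in its lowest library.

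GRE159 and GRE13 lie on chromosome 14 near Pcdh9 and Pcdh17, genes of protocadherins, a family of cell adhesion proteins. GRE159 had 944 UMIs and an SST fold of 3.68 (3.08 to 4.38), with libraries from 0.934 over a median of 1.82 to 12.3. Sets 1 and 2 gave 2.46 and 5.87, and the fold was 2.88 without library 2-3. PV nuclei held 0.159 UMIs each and SST nuclei 0.124, a ratio of 0.780 whose interval, 0.550 to 1.12, spans 1, as does that of the ratio per cellular UMI, 1.15 (0.815 to 1.66). GRE13, the member farthest from a listed start site, had 1556 UMIs, 1406 of them on barcode 1. Its SST fold of 3.16 (2.70 to 3.68) was above 1 in all 10 libraries, which ran from 1.22 to 6.19, and sets 1 and 2 gave 3.12 and 3.22. It was the member with the highest fold in excitatory nuclei, 1.73, and its SST fold was 2.74 without library 1-3. The relative fold of GRE13 was 1.28.

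GRE262 and GRE110 completed the 8 highest. GRE262, near Kcnj2 (a potassium channel gene), had 339 UMIs, 325 of them on barcode 1, and an SST fold of 2.97 (2.29 to 3.83). Of its 43 SST UMIs, 16 came from library 1-1 and 16 from library 2-4, and its fold was 2.24 in the lowest of the runs that leave out 1 library. Its fold in general inhibitory nuclei, 4.04, was the highest there among members, on 21 UMIs. GRE110, near Auts2, a gene of neural development, was measured far better, with 5483 UMIs, and its SST fold of 2.74 (2.49 to 3.01) was above 1 in all 10 libraries, from 1.22 to 5.50. Its relative fold was 0.999, so that SST nuclei held no more of it than of GREs at large. SST nuclei stood at 0.733 of the PV level per nucleus (0.615 to 0.876) and at 1.08 times it per cellular UMI (0.910 to 1.30), on opposite sides of 1.

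The lowest of the 21 well measured members were GRE42, GRE63 and GRE66. GRE42, near Tle1, had 468 UMIs, 13 of them in SST nuclei, and an SST fold of 0.998 (0.722 to 1.42). GRE63, near Mmp16, had 1021 UMIs and an SST fold of 1.13 (0.850 to 1.48). It had the highest fold in NPY nuclei, 3.77, where 23 of its 54 UMIs lay in 1 nucleus. GRE66, beside the model Gm20063, had 740 UMIs and an SST fold of 1.19 (0.882 to 1.60). The intervals of these 3 members span 1, and those of the other 18 lie above it. An SST fold above 1 was common in the library, at 33 of the 40 members and 235 of the other 247 GREs. Intervals were not counted for the other GREs, so the 18 are not read as a trait of the members. With shares of all GRE UMIs, 7 of the 21 had a relative fold above 1, against 63 of the 165 other GREs with at least 300 UMIs, and the medians were 0.870 and 0.900.

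Members also neighboured each other on chromosomes 3 and 4. In a gap of 1221 kb between coding genes on chromosome 4, GRE136, GRE25 and GRE42 lay within 369 kb and gave SST folds of 2.39 (2.12 to 2.69), 1.45 (1.13 to 1.84) and 0.998. Their PV folds were 0.540, 2.24 and 0.816, so that GRE136 and GRE25 took opposite sides of 1 there, on 18 and 27 PV UMIs, of which 24 of the 27 lay in 1 nucleus. Within introns of Naaladl2 on chromosome 3, 474 kb apart, GRE240 had 2744 UMIs and a fold of 2.25 (1.95 to 2.59), while GRE257 had 65 UMIs and 1.50 (1.11 to 2.20). On chromosome 4 the counting interval of GRE136 lay above those of both its neighbours, but the order of GRE136 and GRE25 changed with the setting. Without the 1% of nuclei with the most viral UMIs their folds were 1.50 and 1.51, and on shares of nuclei with a UMI 1.45 and 1.70. GRE257 was too sparse to be set against GRE240.

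Across the classes of nuclei, the 21 well measured members had median folds of 2.34 in PV, 1.46 in general inhibitory, 1.38 in excitatory, 1.19 in NPY and 1.03 in VIP nuclei. In glia and vessels the medians were lower, at 0.604 in astrocytes, 0.505 in microglia, 0.394 in oligodendrocytes, 0.354 in vascular nuclei and 0.303 in OPC. These folds are per nucleus, and glial nuclei were shallower. Mean cellular UMIs were 555 in astrocytes, 510 in microglia, 440 in oligodendrocytes and 348 in OPC, against 1091 in excitatory and 1546 in vascular nuclei. Per 1000 cellular UMIs, GRE UMIs were 13.6, 11.1, 10.9 and 10.8 in these glia, 17.4 in excitatory and 2.41 in vascular nuclei. The highest mean per nucleus was in PV nuclei for 8 members, in SST nuclei for 7, in general inhibitory nuclei for 3 and in excitatory, NPY and microglia nuclei for 1 each. Among the other 165 GREs it was SST for 68 and PV for 56. Per cellular UMI, SST nuclei led for 10 members, and PV, general inhibitory and microglia nuclei for 2 each. Oligodendrocyte, NPY, excitatory, OPC and astrocyte nuclei led for 1 each. Among the other 165 GREs SST led for 86, general inhibitory for 34, PV for 16, NPY for 9 and VIP for 8. There OPC led for 5, astrocytes for 3, and excitatory, oligodendrocyte, microglia and vascular nuclei for 1 each. Beyond the counting interval, SST nuclei exceeded PV nuclei per nucleus for 5 members and fell below them for 6. Per cellular UMI they exceeded them for 6 and fell below for 1. These calls were not counted for the other 165 GREs, so no trait of the members is read from them. The members' share of all GRE UMIs was 10.8% in SST, 11.1% in PV, 8.66% in VIP and 8.93% in excitatory nuclei, and 9.05% in barcodes with 200 UMIs or fewer. In microglia it was 16.0%, where GRE136 gave 95 UMIs, 75 of them in 1 nucleus. GRE112 had the highest astrocyte fold (1.47), GRE159 the highest VIP fold (2.08), GRE25 the highest oligodendrocyte fold (1.12), and GRE110 and GRE262 the highest OPC and vascular folds (1.03 and 1.11). Barcodes with 200 UMIs or fewer, with a median of 123 cellular UMIs, held 0.762 member UMIs each, against 0.383 in vascular and 4.54 in SST nuclei. Whether these barcodes hold nuclei, and the part of free viral RNA in the low values, was not tested.

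The remaining well measured members, given after their values were seen, lay between these. GRE185 (5332 UMIs), GRE216 (3328), GRE229 (727) and GRE74 (2577) had SST folds of 2.39, 2.28, 2.19 and 2.12. GRE238 (679), GRE145 (764) and GRE33 (850) had 1.87, 1.68 and 1.49. GRE74 had a PV fold of 5.38, the second highest of the members after the 7.99 of GRE83. The 19 members with under 300 UMIs had at most 9 UMIs in SST nuclei and SST folds from 0.599 to 1.50, and 5 of them (GRE27, GRE90, GRE165, GRE223 and GRE260) had none. Of these, GRE90 alone was deep enough to bound its level. It gave 210 UMIs, all elsewhere, and 3 UMIs in SST nuclei would have been 0.498 of its mean in other nuclei. The other 14 were GRE52, GRE53, GRE75, GRE87, GRE101, GRE105, GRE140, GRE174, GRE206, GRE237, GRE241, GRE249, GRE257 and GRE258, and of these only GRE53, GRE87 and GRE257 had an interval that did not reach 1.

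ATAC-Seq reads at most members were few, and most came from SST replicate 2. Each ATAC-Seq sample had between 1801883 and 2256073 reads in the reference regions. Of the 40 members, 24 had no read in any of the 4 PV and VIP samples, and the median was 1 read in SST replicate 1 and 8 in SST replicate 2, which held more than replicate 1 at 39 of 40. A peak of the authors covered 28 members, 26 of them in SST replicate 2 alone, and 12 had no peak in any sample. For the other 247 GREs a peak was found at 130, 92 of them in SST replicate 2 alone. GRE83, for example, had 0 and 2 reads in PV, 0 and 0 in VIP, and 5 and 21 in SST. GRE44 had 0 and 0 in PV, 1 and 0 in VIP, and 0 and 20 in SST. Since the library was picked on the SST signal of these same samples, SST-higher values of members are part of how they were chosen and no independent evidence.

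Only GRE262 and GRE258 passed the filter on low counts. GRE262 had 22 and 13 reads in PV, 2 and 9 in VIP, and 115 and 122 in SST, and GRE258, near the axon guidance receptor gene Dcc, had 5 and 1, 3 and 4, and 36 and 32. In both, the SST replicates stood above every other sample. With edgeR's quasi-likelihood test of SST against the average of the other 2 cell types, 8.15% of the 40338 regions that passed were called higher in SST, and so were all 21 GREs among them, both members included. GREs passed this filter largely through the SST reads on which the library had been picked, so these calls are a description and nothing is read from them. Between PV and VIP, where 49.1% of regions differed, 1 of the 2 did, as GRE262 was higher in PV by 1.85 on the log2 scale (adjusted p = 0.0078 by the same edgeR fit). That call was lost without PV replicate 1, without VIP replicate 1 and with no filter on low counts. The member with by far the most SST reads, GRE262, thus ranked 7 among members in SST fold, and GRE258, the next, gave 94 UMIs in V1, 2 of them in SST nuclei.

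Of the 9 motifs, CAGATG differed most in share between members and other regions. It occurred in 23 of the 40 members within the 300 bases around the centre (57.5%), in 97 of 247 other GREs (39.3%) and in 29.0% of 35928 conserved reference regions cut to the same length. Of the 6 members above an SST fold of 3, 5 held it (83.3%), as did 7 of the other 15 with at least 300 UMIs (46.7%). GRE112, which holds it, reached 300 UMIs only with those of SST nuclei. These shares are a description with no test, and the members were also poorer in GC than other GREs. The cloned fragments that drove the reporter also carried flanks, in which no motif was searched. The palindromic E-box CAGCTG stood at 35.0% of members, 35.2% of other GREs and 28.7% of reference regions. TAATTA was in 5 members (12.5%), against 12.1% of other GREs and 8.29% of reference regions. The SOX, AP-1 and MAF motifs were in 3 members each (7.5%), where other GREs held them at 10.1%, 13.8% and 6.48% and reference regions at 12.1%, 6.89% and 6.45%. AP-1 was thus less frequent in members than in other GREs and close to its share of reference regions. The nuclear receptor motif was in 1 member (2.5%), against 4.86% of other GREs and 13.4% of reference regions. The loose MEF2 pattern, in 5.26% of other GREs and 3.55% of reference regions, had no match in these bases of any member. CRE had none in these bases of any GRE and was in 0.635% of reference regions. In the windows as listed, 1 of the other 247 GREs held CRE.

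The genes listed nearest to the members did not share a pattern across classes of nuclei. Of 37 listed genes, 29 had a column of their own in the counts, 24 with at least 100 UMIs, and 2 of these 24 were highest in SST nuclei, D3Ertd751e beside GRE74 (0.499 UMIs per 10000 cellular UMIs, against 0.479 in NPY nuclei) and Mctp2 beside GRE75 (6 UMIs in SST nuclei). Nxph1, beside GRE83, was at 4.64 UMIs per 10000 cellular UMIs in SST, 2.93 in PV, 3.54 in NPY and 0.174 in VIP nuclei, at 8.17 in OPC and at 0.114 in excitatory nuclei, 11.4 times higher in SST than in all other nuclei. Adgrl4, beside GRE44, went the other way, with 17.6 in vascular nuclei and 0.0227 in SST nuclei, on 2 UMIs. Pcdh17, beside GRE13, was at 1.67 in SST nuclei, below OPC (5.01), VIP (2.93), general inhibitory (2.02) and NPY nuclei (1.76), and at 0.804 over all nuclei other than SST. Pcdh9, beside GRE159, was at 3.06 in SST nuclei against 4.11 in all others. Auts2 stood at 0.817 against 1.15, Kcnj2 at 0.261 against 0.568, and Tle1, beside GRE42 and GRE25, at 0.568 against 0.535. Nearness on the chromosome does not say which gene an element acts on.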

How the data were processed

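V1 nuclei of the PESCA sample were analysed in 10 libraries and ATAC-Seq in 6 samples, 2 each of SST, PV and VIP. For snRNA-Seq viral transcripts were enriched by PCR and the authors mapped reads to GRCm38 plus the barcodes, and the deposited counts are UMIs per barcode without normalization. For ATAC-Seq the submitters' processing notes name Trimmomatic 0.33, Subread 1.4.6-p3, MACS2 and HOMER (mm10), and the deposited read counts per reference region have no normalization. The authors' peak lists hold peaks called per sample by both callers, with the −log10 q-value of MACS2. The authors' phyloP score is the mean over each region. The deposited GRE table has ATAC and PESCA specificity columns, the authors' own comparisons, which were not used.

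The distance rule that defines the members uses no activity, but it, the lists and the members named were chosen with earlier results of these data known. Members named in detail are the 8 highest and 3 lowest SST folds among those with at least 300 UMIs, the highest fold in each other class, the most and fewest UMIs, the study's hit and members within 1000000 bases of another. Interneurons were gated at 2 UMIs of Sst, Pvalb or Vip, at least 2 times the others, NPY nuclei at 2 UMIs of Npy, and other classes at 3 UMIs from 2 genes of a list, 3 times every other list. A column named Vector, with 569883 UMIs, also counts viral RNA and entered the limit of 200 UMIs. Without it 31896 nuclei pass. Of 34958 barcode names, 9663 occur in several libraries, so library and barcode together named a nucleus. Kept nuclei had a median of 701 cellular UMIs, and SST nuclei 829. Doublets were not removed.

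The ATAC-Seq counts were fitted in edgeR 4.0.16, with filterByExpr, TMM and the quasi-likelihood test, over all 6 samples, Benjamini-Hochberg adjusted at 0.05, with DESeq2 1.42.0 as an alternative. The labels do not say whether the 2 samples of a cell type were separate animals. The study's methods describe independent experiments, each from 1 animal, and also several snRNA-Seq libraries per animal, with no library tied to an animal in the labels. Replicate numbers do not pair samples, since deviations correlated between -0.0371 and 0.0287. The SST fold and the edgeR fit were each tested on simulated data. For the fold, independent Poisson counts were drawn per nucleus. Its test therefore does not cover a GRE with many UMIs in 1 nucleus. Peaks were intersected with bedtools 2.31.1 at 1 shared base. SST clusters came from Leiden clustering in scanpy 1.11.5. Windows were read from GRCm38.p6, and the table's start was found to count from 1. Reference regions with a phyloP score of at least 0.5 served for motif shares. The barcode sequences and the virus pool before injection were not analysed here.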

Additional observations from a re-analysis of the deposited data

Results flagged for a closer look

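Of 21 values compared over the 10 libraries (5 of the members as a group and the SST folds of the named members), 8 had a library that stood apart by Dixon's criterion. For independent, normally distributed values chance gives about 1 in 20. Folds of few UMIs are not such values, and the flags of library 2-5 share counts. No excess is therefore read from the number flagged. Library 2-5 had the fewest viral UMIs, with 0.647 member UMIs per kept nucleus (next 1.23) and 7.34 GRE UMIs per kept nucleus (next 13.8). In library 2-3 the members gave 10.2% of GRE UMIs, above the next, 9.27%. Single libraries were high for GRE112 (18.9 in library 1-3, next 9.26), GRE159 (12.3 in library 2-3, next 6.66), GRE63 (6.06 in library 1-5, next 1.38), GRE42 (3.85 in library 1-5, next 1.87) and GRE66 (6.13 in library 2-5, next 2.91). Without library 1-5 the SST fold of GRE63 was 0.727, and that of GRE42 0.785. The cause was not tested.

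The 303 viral barcode columns that belong to no GRE held 5791 UMIs in kept nuclei, 1.14% of all viral barcode UMIs, with UMIs in 297 columns and at most 550 in 1, above the 3 UMIs that a count of 0 allows. They entered no fold.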

How the results depend on the processing

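The median SST fold of the 40 members, 1.36, became 2.09 with 0.001 added, 1.05 with 0.1 added, 1.55 with the interneuron gate at 5 UMIs, 1.56 in library set 1 alone, and 1.15, 1.11 and 1.14 with barcode 1, 2 or 3 alone. As a share of all GRE UMIs it turned to 0.825, and leaving out 1 library gave 1.31 to 1.42. The median of the 21 members with at least 300 UMIs, 2.28, turned to 0.870 on such shares. It became 1.45 against other interneurons, 1.55 with 0.1 added, 1.57 with barcode 1 alone and 1.70 on shares of nuclei with a UMI. Without the 1% of nuclei with the most viral UMIs it was 1.82, and with SST nuclei from Leiden clusters 2.02. It rose to 2.62 and 2.82 with the interneuron gate at 3 and 5 UMIs, 2.47 with 0.001 added and 2.52 in library set 2 alone. The number of members above 3, which was 6, became 3 with 0.1 added, 3 against other interneurons only, 3 with barcode 1 alone, 0 on shares of all GRE UMIs, 1 on shares of nuclei with a UMI, 3 without the SST nucleus richest in each GRE (chosen after seeing the data), and 5 to 7 when 1 library was left out. It rose to 9 with the interneuron gate at 5 UMIs, 7 with it at 3, 8 with 0.001 added and 8 in library set 2 alone. With SST nuclei from Leiden clusters it was 4. Of 448 folds of the 16 named members under 28 alternatives, 38 lay on the other side of 1 from the value reported, 31 of them for members whose interval spans 1 (16 for GRE42, 8 for GRE63, 6 for GRE66 and 1 for GRE260). On shares of all GRE UMIs GRE63 went to 0.409, GRE66 to 0.445, GRE25 to 0.551, GRE110 to 0.999, GRE136 to 0.880 and GRE240 to 0.843. GRE25 went to 0.986 against other interneurons, and with barcode 2 alone GRE257 went to 0.916 and GRE262 to 0.981. Per cellular UMI, added after seeing the data, the ratio of SST to PV nuclei turned to 1.14 for GRE83 and 1.08 for GRE110. Dropping the Vector column from the limit on nuclei, added after seeing the data, left the median at 1.36 and the count at 6.

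For ATAC-Seq, the replicate block (a paired fit by number) left 2 members higher in SST and 1 different between PV and VIP, as in the fit without it, while over all regions it called 2994 in place of 3288 for SST. DESeq2 gave 2 and 1 as well. Leaving out 1 sample changed which regions passed the filter, so that 2 to 8 members were tested. It gave 2 to 7 members higher in SST, where 5.37% to 8.81% of all regions were, and 0 to 1 different between PV and VIP, where 24.3% to 51.5% were. Without SST replicate 1 the 7 called for SST were all 7 tested. With no filter 2 of 40 were higher in SST (0.133% of 310118 regions), and between PV and VIP 0 differed by edgeR (3.5% of regions), with 1 at an unadjusted p under 0.05. Since the library was picked on these SST reads, nothing is read from the SST counts. Motif counts in the windows as listed and in their central 300 bases differed by at most 2 members. Depth limits the 19 members that had under 300 UMIs.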
